A study of Mus musculus with 6 samples.

Results

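Genes mutated in motoneuron disease were read in laser-captured cervical motoneurons of the mouse embryo. The list holds 37 genes of amyotrophic lateral sclerosis (ALS), spinal muscular atrophy (SMA) and spastic paraplegia, together with the SMN complex. Their probe sets were those to which the array annotation gives 1 of these genes and no other gene. This gave 84 probe sets for 31 of the 37 genes, out of 45037 probe sets and 18193 singly annotated genes on the array. Gemin4, Gemin6 and Spg11 share their probe sets with other genes and were not read. Nek1, Optn and Uba1 were not analysed here.

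The samples were the left and the right GFP-positive pools of 3 embryos of 1 litter at E11.5, with 1 array per pool. All embryos carried the HB9::GFP transgene, in which the promoter of the motoneuron gene Hb9 (Mnx1) drives GFP, and no other allele or treatment is given. The left and right pools of an embryo came from the same sections, which allows a ratio of right to left, R/L, within each embryo. A captured region also holds whatever lies among its GFP-positive cells, and in such samples fewer cells of a type and less RNA per cell cannot be told apart.

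Motoneurons send very long axons to muscle, and the genes of motoneuron disease fall into a few cellular functions. The SMN complex loads Sm proteins onto the small nuclear RNAs of the spliceosome, and loss of SMN causes SMA. Many ALS genes encode RNA-binding proteins of the nucleus and of stress granules, or proteins of autophagy and ubiquitin-dependent turnover, whereas paraplegia genes shape the endoplasmic reticulum, sever microtubules or maintain mitochondria. Most of these genes are active in many tissues.

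The deposited values are array signals on a linear scale, and testing was limited to probe sets that reached 200, the limit of the study, in at least 1 of the 6 pools. Of the 84 probe sets, 64 were tested, for 27 genes, beside 21853 of the 45037 on the array. Of the 64, 49, for 23 genes, reached 200 in all 6 pools, a share not given here for the whole array. Every one of the 8 RNA-binding genes and of the 7 turnover genes read had such a probe set, but only 2 of the 6 SMN complex genes did. These groups hold 33, 15 and 10 probe sets, and a gene with more probe sets has more chances to count. The other 20 probe sets stayed under 200 in every pool, and Smn1, Gemin8, Ighmbp2 and Trpv4 had no tested probe set. Just inside the limit were probe sets of Atxn2 (highest signal 203) and Plekhg5 (204), and just outside it were those of Taf15 (188), Gemin8 (187) and Smn1 (180.4). The signal of a probe set depends on its probes, so that signals of different genes are not compared here as amounts of RNA.

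**Figure D1:**
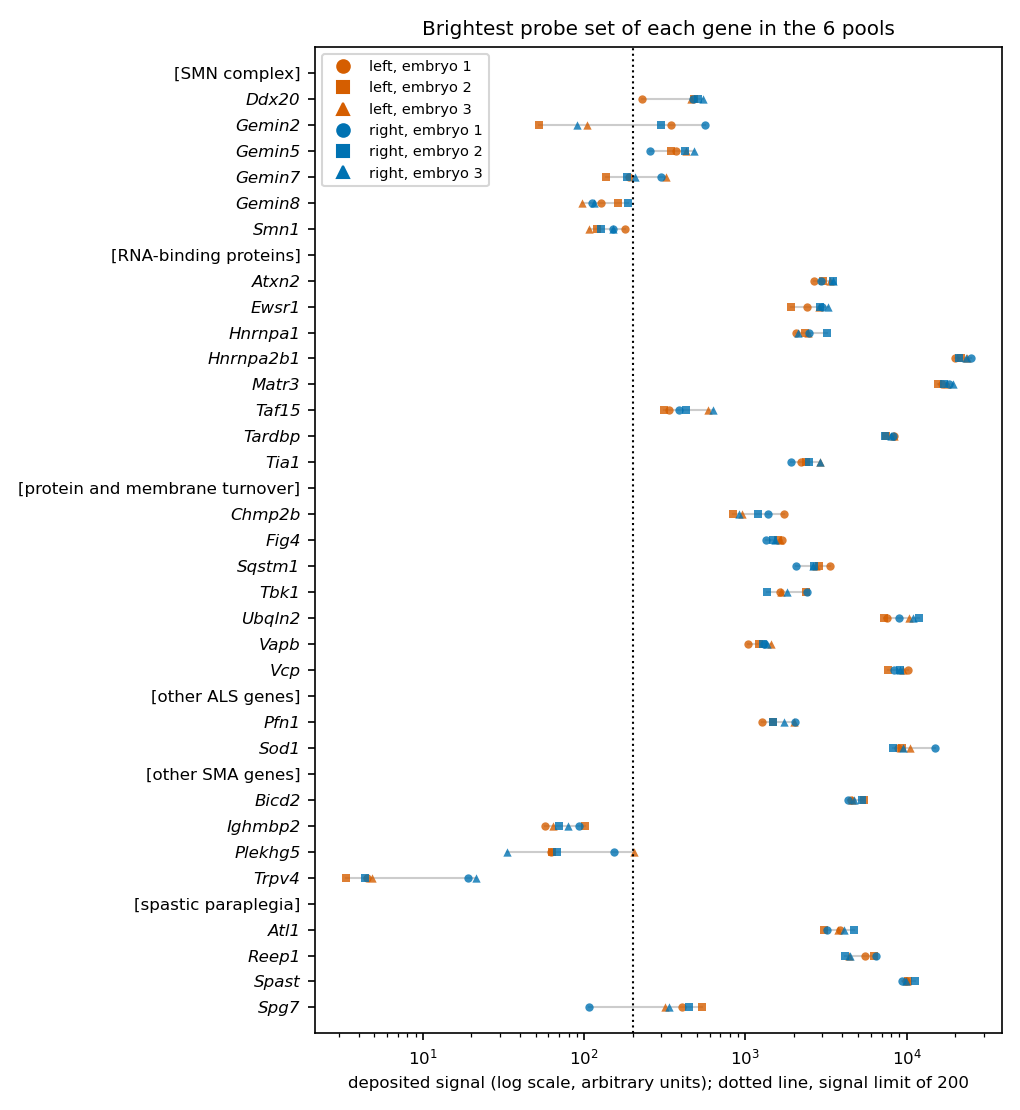
Deposited signal (log scale, arbitrary units) of the brightest probe set of each of 31 genes in the left and right pools of embryos 1, 2 and 3, by role. The RNA-binding and turnover genes lie above the limit of 200 in every pool, whereas Smn1, Gemin8, Ighmbp2 and Trpv4 lie below it in every pool.

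The captured pools carried motoneuron RNA on both sides, markers of other cell types were read in all 6 pools, and those of mesenchyme and muscle stood far higher in 1 pool. All 11 motoneuron markers reached the limit in at least 1 pool, and Chat read 198 in the left pool of embryo 3. Their summed signal was 47666, 38135 and 28773 in the left pools of embryos 1, 2 and 3. In the right pools it was 47816, 33699 and 28680. Prph, 1 of these markers, read 23019, 15618 and 10514 in left pools and 23486, 14011 and 10752 in right pools. The 12 mesenchyme and sclerotome markers summed to 17013 in the right pool of embryo 1 and to between 964 and 2454 in the other 5 pools. All 12 were higher on the right in embryo 1. Embryo 2 was also uneven, with a mesenchyme and sclerotome sum of 964 on the left and 2454 on the right. The 8 skeletal muscle markers summed to 5875 in that pool and to between 245 and 463 elsewhere. Floor and roof plate markers summed to 1633.5, 254 and 665 in the left pools of embryos 1, 2 and 3. Their right pools gave 2316, 1535 and 743, so that embryo 2 was uneven here too. Neural progenitor markers summed to 4062, 9049.5 and 11297 in left pools against 5613, 8385 and 9698 in right pools. Sums of erythroid markers ranged from 20238 to 37423. The part of these cells in the values below was not tested. Counts of called members are given with all 3 embryos and with each embryo left out in turn.

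The study set right against left motoneurons to find genes behind left-right differences in how phrenic axons reach the diaphragm. No gene of the list was called different between the sides. With limma, with side and embryo as terms, 0 of the 64 probe sets passed an adjusted p of 0.05, beside 0% of all 21853 tested probe sets, and the smallest adjusted p of a member was 0.974. At an unadjusted p under 0.05 there were 2 members, or 3.13%, beside 3.40% of all tested. The fold rule of the study asks for 1 direction in all 3 embryos, and for a mean log2(R/L) past 0.58, which is 1.5-fold, with 2 or more embryos past it as well. By this rule 0 members were higher on the right, beside 2.4% of all tested probe sets, and 0 were higher on the left, beside 1.55%. With 1 embryo left out, the fold rule asks both remaining embryos to share 1 direction and to lie past 0.58. Its shares are therefore not those of the rule over 3 embryos. Without embryo 1, limma called 0 members, and the fold rule named 0 on the right, beside 0.915% of all tested, and 0 on the left, beside 0.906%. Without embryo 2, limma called 0 members, and the fold rule named 0 on the right, beside 1.03% of all tested, and 0 on the left, beside 0.805%. Without embryo 3 the fold rule named 3 members on the right (Gemin2, and dim probe sets of Gemin5 and Vapb), beside 4.9% of all tested, and 0 on the left, beside 2.94%.

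The direction was the same in 3 of 3 embryos for 18 of the 64 probe sets, of which 12 were higher and 6 lower on the right, or 28.1% beside 23.5% of all tested. The left and right signals did not overlap for 3 of the 64, which belong to Ewsr1, Fig4 and Sqstm1, beside 5.43% of all tested. Over the brightest tested probe set of each gene, 16 of 27 genes were higher and 11 lower on the right. The median log2(R/L) of these genes was 0.09, beside 0.01 over all 10539 genes tested. It was 0.02 without embryo 1, 0.03 without embryo 2 and 0.15 without embryo 3. By embryo it was 0.21, 0.10 and −0.02, beside 0.042, 0.006 and −0.002 over all genes tested.

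The embryos differed in how far apart their sides lay. Probe sets of the list differed by more than 1.5-fold between the sides in 18 cases in embryo 1, in 15 in embryo 2 and in 3 in embryo 3. These shares were 28.1%, 23.4% and 4.69%, beside 35.4%, 29.6% and 6.88% of all tested probe sets. In embryo 1 the right was higher for 10 and lower for 8, in embryo 2 higher for 10 and lower for 5, and in embryo 3 lower for all 3.

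A p that misses the threshold does not show that the sides are equal, and the 95% interval of each difference, from the same limma fit, gives what these 6 arrays could resolve. It lay within 1.5-fold in both directions for 30 of the 64 probe sets, which belong to 15 genes, beside 26.9% of all tested. These genes are Atl1, Atxn2, Bicd2, Chmp2b, Fig4, Hnrnpa1, Hnrnpa2b1, Matr3, Reep1, Sod1, Spast, Tardbp, Tia1, Vapb and Vcp, each with at least 1 such probe set. The half-width of the interval had a median of 0.47 (log2) over the members, narrower than the 0.59 over all tested probe sets. Among the members it ran from 0.22 to 2.02. For the other probe sets a difference of 1.5-fold or more lies inside the interval.

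**Figure D2:**
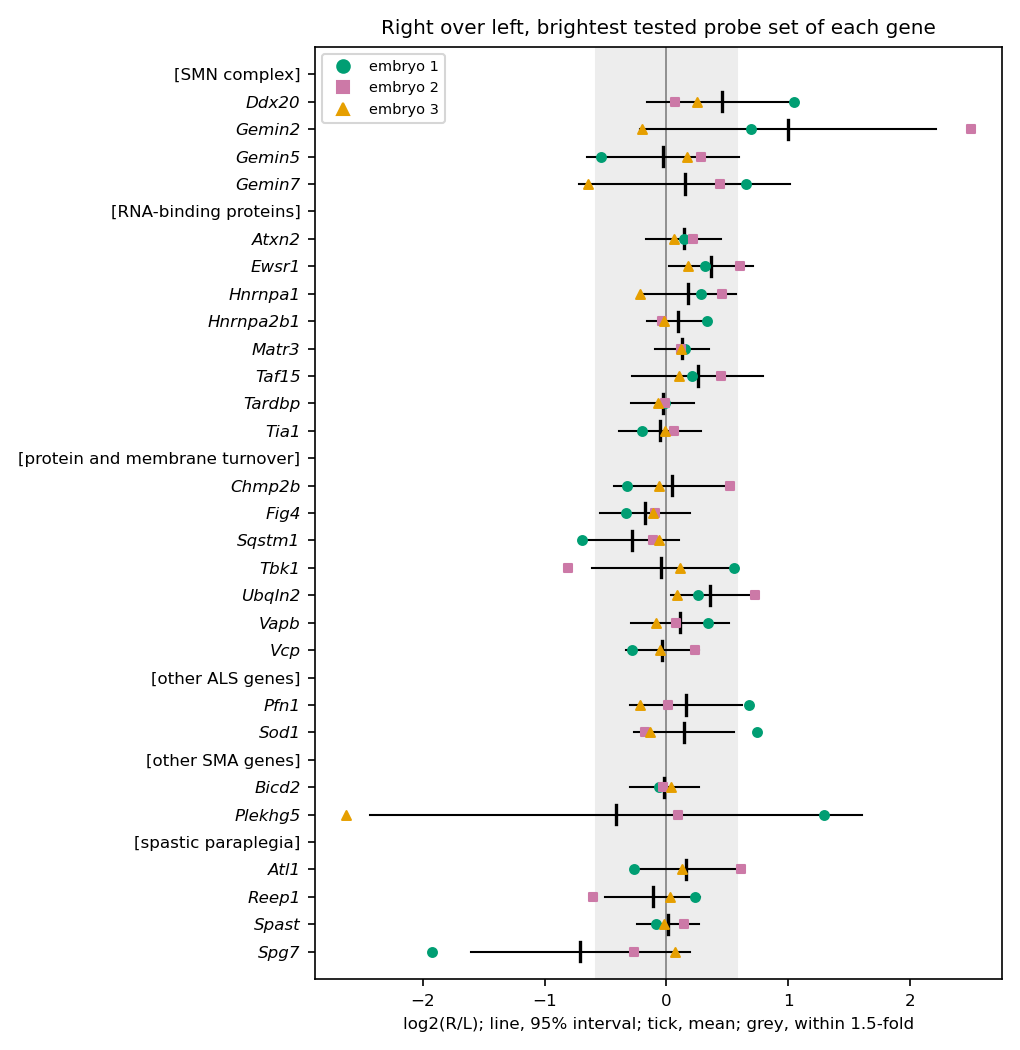
Log2(R/L) of the brightest tested probe set of each of 27 genes in embryos 1, 2 and 3, with the mean and its 95% interval by limma. Means of 0.36 for Ubqln2 and 0.37 for Ewsr1 are those whose intervals lie above 0, and the longest intervals are those of Gemin2 and Plekhg5, which were read at low signal.

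The SMN complex is built on SMN, which binds Gemin2, while Gemin5 recognises the small nuclear RNAs. Smn1 (1426596_a_at) read 180.4, 119 and 107 in the left pools of embryos 1, 2 and 3 and 151, 128 and 150.25 in the right pools. All 6 signals lay under the limit and the sides overlapped, so that Smn1 was not tested. Gemin8, a bridging subunit encoded on the X chromosome, read at most 187 over its 3 probe sets and was not tested either.

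Gemin2 (1451044_at) read 344, 52.8 and 104 in left pools against 559, 299 and 90.3 in right pools. The 2 pools of embryo 1 were the highest, the left pool of embryo 2 was the lowest, and the sides overlapped. Its log2(R/L) was 0.70, 2.50 and −0.20 in the 3 embryos, with a mean of 1.00 ± 1.38 (SD, n = 3 embryos) and a 95% interval of −0.22 to 2.21 (limma adjusted p = 0.974). Without embryo 2 the mean was 0.25. Only 3 of its 6 signals reached 200.

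Ddx20 (Gemin3), a DEAD-box helicase of the complex, read 230, 480.5 and 457 in left pools against 475, 506 and 545 in right pools. The right was higher in 3 of 3 embryos, with a mean log2(R/L) of 0.46 ± 0.52, but only embryo 1 lay beyond 1.5-fold. The brightest of the 3 tested Gemin5 probe sets averaged −0.03 ± 0.45, and the other probe sets of Gemin5 averaged −0.02 and 0.59. Gemin7, a small subunit, averaged 0.15 ± 0.70. The median over the 4 tested genes of the complex was 0.30, from signals that for Gemin2 and Gemin7 reached the limit in 3 of 6 pools.

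The RNA-binding proteins hold the most probe sets, 33 for 8 genes, of which 30 were tested. Their brightest probe sets averaged between −0.05 and 0.37 in log2(R/L), with a median of 0.14. Tardbp encodes TDP-43, the protein that aggregates in most ALS. Its brightest probe set (1423723_s_at) read 8357, 7422 and 8386 in left pools against 8270, 7381 and 7995 in right pools. The sides lay almost on each other in each embryo, with a log2(R/L) of −0.03 ± 0.03 and a 95% interval of −0.29 to 0.23. The 5 tested probe sets of Tardbp averaged between −0.17 and 0.14.

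Hnrnpa2b1 encodes a nuclear ribonucleoprotein that packages RNA. Its 4 tested probe sets lay closest together of all genes with several, with means of 0.09, 0.12, 0.13 and 0.13. The brightest read 19824, 21780 and 23759 in left pools against 25004, 21206 and 23458 in right pools, and only embryo 1 had the clearly higher right pool. Its relative Hnrnpa1 averaged 0.18 ± 0.35 in its brightest probe set. Atxn2, a cytoplasmic RNA-binding protein whose repeat is expanded in ALS, had 2 bright probe sets that were higher on the right in 3 of 3 embryos, with means of 0.14 ± 0.08 and 0.18 ± 0.06. Both intervals of these Atxn2 probe sets lay within 1.5-fold.

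Ewsr1 and Taf15 are related nuclear proteins that bind RNA. Ewsr1 (1436884_x_at) read 2399.5, 1912 and 2881 in left pools against 2984, 2903 and 3260 in right pools. Every right pool was above every left pool, with log2(R/L) of 0.31, 0.60 and 0.18, a mean of 0.37 ± 0.22 and a 95% interval of 0.02 to 0.71 (limma adjusted p = 0.974). The suffix of this probe set marks probes that may also match other transcripts. The brightest probe sets of Atxn2, Hnrnpa1, Reep1, Sod1, Tardbp and Tbk1, and the Vapb probe set 1436079_s_at, carry an s_at or x_at suffix and share this limit. The other tested Ewsr1 probe set (1417238_at) read 737, 539 and 364 in left pools against 449, 483 and 452 in right pools, with overlapping sides and a mean of −0.19 ± 0.52. Taf15 averaged 0.26 ± 0.17, higher on the right in 3 of 3 embryos, with an interval of −0.28 to 0.79.

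Tia1 nucleates stress granules, and its 6 tested probe sets did not give 1 answer. The brightest averaged −0.05 ± 0.14. The probe set farthest to the left (1416814_at) read 2283, 2589 and 2013 in left pools against 1195, 1942 and 2145 in right pools, with a mean of −0.42 ± 0.51 (limma adjusted p = 0.974). The one farthest to the right (1431708_a_at) read 345, 276 and 555 in left pools against 247, 645 and 608 in right pools, with a mean of 0.29 ± 0.87. The gap between these means, 0.71, is within the spread of the second over the embryos, and both had overlapping sides.

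Matr3, an RNA-binding protein of the nuclear matrix, had 3 bright probe sets with means of 0.13 ± 0.02, −0.03 ± 0.13 and −0.10 ± 0.34. All their intervals lay within 1.5-fold. A further Matr3 probe set (1458508_at) stayed under the limit and was not tested. It read 112, 116 and 110.1 in left pools against 36.6, 41.2 and 51.1 in right pools, so that the sides did not overlap, with a mean log2(R/L) of −1.41 ± 0.27. It was named after its values were seen, and without the signal limit 3.77% of all probe sets on the array met the fold rule on the left.

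**Figure D3:**
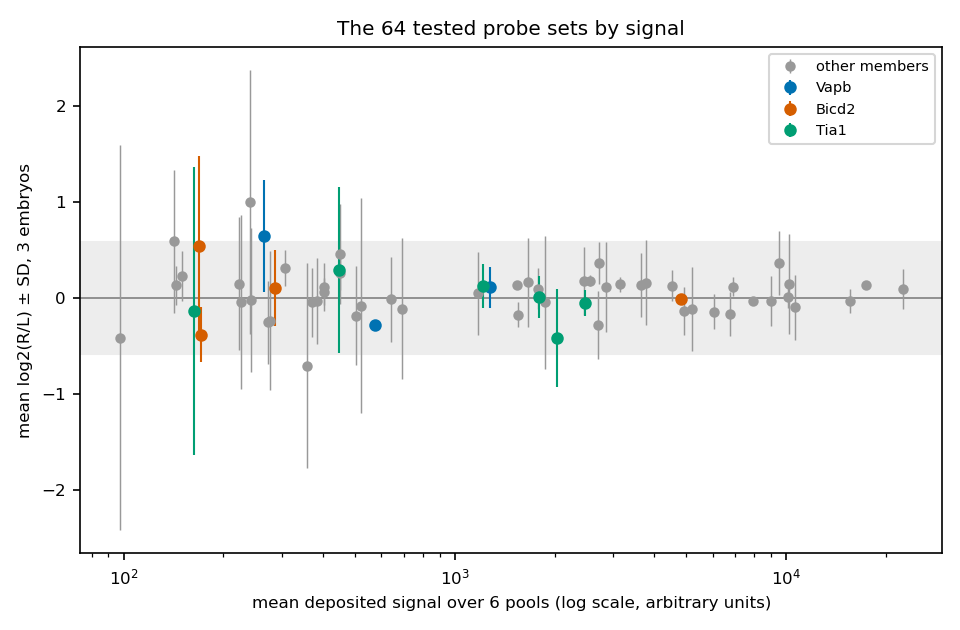
Mean log2(R/L) of each of the 64 tested probe sets (point) with its SD over 3 embryos (bar), against its mean signal over the 6 pools (log scale, arbitrary units), with Vapb, Bicd2 and Tia1 in colour and 1.5-fold in grey. The probe sets farthest apart within a gene lie 0.93 apart for Vapb and Bicd2 and 0.71 apart for Tia1, and the long bars stand at low signal.

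The genes of protein and membrane turnover gave 13 tested probe sets for 7 genes, with a median of −0.03 over the brightest. Ubqln2 is a shuttle that brings ubiquitinated proteins to the proteasome, and it had the smallest p of the list. Its brightest probe set (1450021_at) read 7509, 7225 and 10317 in left pools against 9012, 11984 and 10988 in right pools. The right was higher in 3 of 3 embryos, though the left pool of embryo 3 was above the right pool of embryo 1. The mean was 0.36 ± 0.33, with a 95% interval of 0.04 to 0.69 (limma adjusted p = 0.974), and it was 0.41 without embryo 1 and 0.18 without embryo 2. A second tested probe set of Ubqln2, at lower signal, averaged 0.31 ± 0.19 and was also higher on the right in 3 of 3 embryos.

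Sqstm1 encodes p62, which carries ubiquitinated cargo into autophagosomes. It read 3343, 2856 and 2726 in left pools against 2067, 2654 and 2621 in right pools. Every left pool was above every right pool, but the gap came mostly from embryo 1, and the mean of −0.29 ± 0.35 (limma adjusted p = 0.974) was −0.08 without it. Fig4, a phosphoinositide phosphatase of endosomes, read 1694, 1586 and 1642 in left pools against 1350, 1488 and 1518 in right pools. Its sides did not overlap either, with a mean of −0.18 ± 0.13 and an interval of −0.55 to 0.19.

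Vcp, an ATPase that extracts ubiquitinated proteins from complexes, read 10198, 7682 and 9520 in left pools against 8375, 9052 and 9163 in right pools. Its direction changed between embryos, and the mean was −0.03 ± 0.26. Tbk1, a kinase that phosphorylates autophagy receptors, averaged −0.05 ± 0.70 in its brightest probe set, lower on the right in embryo 2 alone. Chmp2b, a subunit of the membrane-cutting ESCRT-III complex, averaged 0.05 ± 0.43.

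Vapb, a tether of the endoplasmic reticulum membrane, had the widest gap between probe sets. Its brightest (1423152_at) read 1036, 1215 and 1441 in left pools against 1311, 1282 and 1355 in right pools, with a mean of 0.11 ± 0.22. A dim one (1458501_at) read 210, 150.2 and 270.04 in left pools against 363, 330.5 and 269.75 in right pools, with a mean of 0.64 ± 0.58 (limma adjusted p = 0.974). Embryo 3 showed no difference in this probe set, so that it missed the fold rule. The third (1436079_s_at) was lower on the right in 3 of 3 embryos, with a mean of −0.28 ± 0.06, from 770.4, 489 and 629.7 in left pools against 660.4, 389.8 and 509.9 in right pools.

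Of the other ALS genes, Sod1 encodes the cytosolic superoxide dismutase. Its brightest probe set (1459976_s_at) read 8898, 9312 and 10467 in left pools against 14923, 8264 and 9531 in right pools. The right pool of embryo 1 was the highest of the 6, and in embryos 2 and 3 the left was higher. The mean was 0.15 ± 0.52, with an interval of −0.26 to 0.56, and −0.15 without embryo 1. The next Sod1 probe set averaged −0.14 ± 0.25, and Pfn1, which binds actin monomers, averaged 0.16 ± 0.46.

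Of the other SMA genes, Bicd2 is an adaptor that links cargo to dynein. Its brightest probe set (1437875_at) read 4492, 5421 and 4575 in left pools against 4311, 5322 and 4697 in right pools. The sides were nearly equal in each embryo, with a mean of −0.02 ± 0.05 and an interval of −0.30 to 0.27. Of its dim probe sets, 1450733_at read 215, 164 and 199 in left pools against 203, 122 and 127 in right pools, with a mean of −0.38 ± 0.28. The probe set 1450732_a_at read 92.8, 191 and 132 in left pools against 276, 161 and 162 in right pools, with a mean of 0.54 ± 0.93, which was 0.03 without embryo 1. Both dim probe sets lay near the limit, with 2 and 1 of 6 signals reaching it.

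Plekhg5, an exchange factor for RhoA, reached the limit only in the left pool of embryo 3, and its mean of −0.41 ± 2.01 has the widest interval of the list, with a half-width of 2.02. Ighmbp2, a helicase lost in SMA with respiratory distress, read at most 163 over its 4 probe sets. Trpv4, a cation channel, read at most 21.2, and neither was tested.

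The paraplegia genes shared no direction, with a median of −0.05 over 4 genes. Spast, which severs microtubules, read 9961, 10237 and 10068 in left pools against 9416, 11339 and 9910.1 in right pools. Its mean was 0.01 ± 0.12, with an interval of −0.24 to 0.27. Atl1, a GTPase that fuses tubules of the endoplasmic reticulum, averaged 0.16 ± 0.44 and 0.11 ± 0.47 in its 2 probe sets, which were lower on the right in embryo 1 and higher in embryos 2 and 3. Reep1, which curves the same membrane, averaged −0.11 ± 0.44. Spg7, a mitochondrial protease, read 406, 536 and 318 in left pools against 107, 446 and 334 in right pools, and its mean of −0.71 ± 1.07 came mostly from the low right pool of embryo 1.

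Littermates were compared next, since each embryo gives both a left and a right pool. The 2 pools of an embryo are 1 animal, so that this comparison describes these 3 embryos. Sums of motoneuron and progenitor markers also differed between the embryos, as given above, and their part in this comparison was not tested. With limma, in the same fit, 0 of the 64 member probe sets passed an adjusted p of 0.05 (smallest adjusted p = 0.182), beside 0.27% of all tested. This count was 1 without embryo 1 (Hnrnpa2b1, limma adjusted p = 0.0470), beside 3.61% of all tested, and 1 without embryo 2 (Gemin2, limma adjusted p = 0.0173), beside 3.87%. It was 0 without embryo 3, beside 0.0229%. At an unadjusted p under 0.05 there were 10 members of 9 genes, or 15.6%, beside 15.3% of all tested. Embryo 1 was the lowest in 7 of the 10 and the highest in 3, and the matching shares over all tested probe sets are not given here. Of the 10, 7 were probe sets of RNA-binding proteins, which make up 30 of the 64 tested.

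The smallest p was that of an Hnrnpa1 probe set (1455740_at), which read 196, 504 and 489 in left pools against 260, 482 and 488 in right pools (limma adjusted p = 0.182). Both pools of embryo 1 were below all pools of the other embryos. A Tia1 probe set (1437934_at) read 1351, 1749.9 and 2238 in left pools against 1191, 2078 and 2181 in right pools (limma adjusted p = 0.190), also with embryo 1 lowest. A Tardbp probe set (1428467_at) had the same order, with 1100, 1550.1 and 1753 in left pools against 1242, 1713 and 1872 in right pools (limma adjusted p = 0.264). These are not the brightest probe sets of their genes, and the brightest ones had limma adjusted p-values of 0.673 for Hnrnpa1, 0.363 for Tia1 and 0.733 for Tardbp.

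An Hnrnpa2b1 probe set (1433830_at) read 3281, 2621 and 4549 in left pools against 2983, 3717 and 4659 in right pools, with embryo 3 highest (limma adjusted p = 0.275). Gemin2, with the values above, ran the other way, with mean signals of 451, 176 and 97.2 in embryos 1, 2 and 3 (limma adjusted p = 0.235). Xist, which is expressed from the inactive X chromosome, read 13416 and 12058 in embryo 2 and at most 5.57 in the other pools. The X-linked Ubqln2 did not pass between embryos (limma adjusted p = 0.492).

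**Figure D4:**
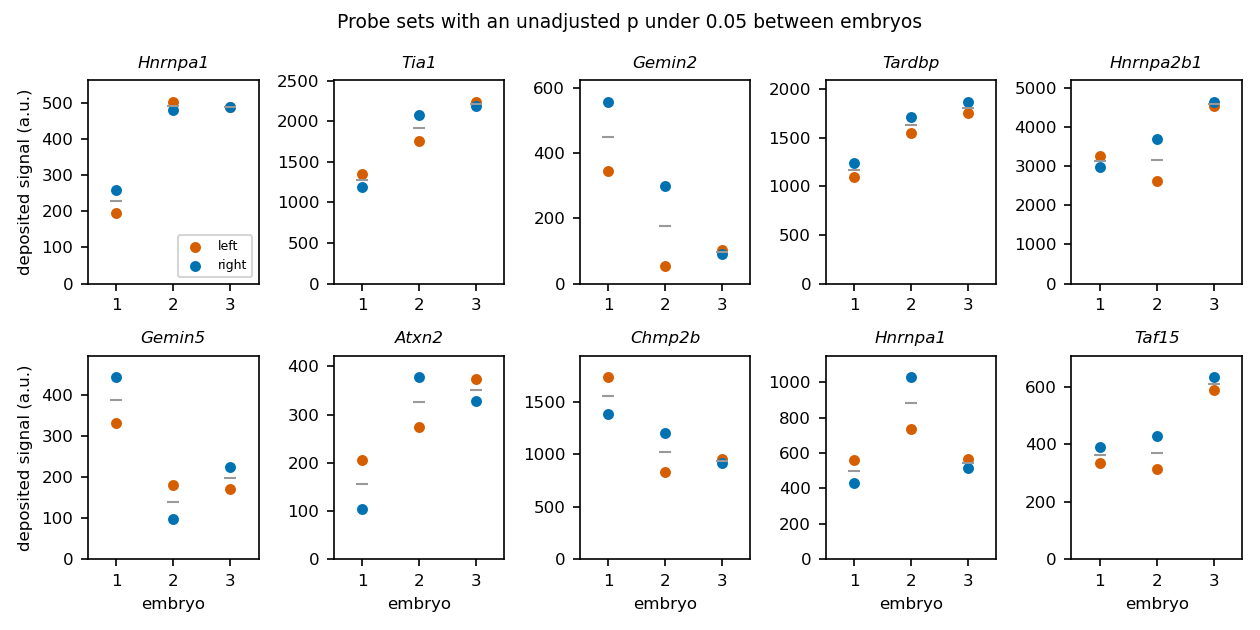
Deposited signal (linear axis from 0, arbitrary units) in the left and right pools of embryos 1, 2 and 3 for the 10 probe sets with an unadjusted p under 0.05 between embryos. The grey dash is the mean of an embryo, which is lowest in embryo 1 in 7 of the 10 and highest there in 3, and 2 panels hold different probe sets of Hnrnpa1.

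Genes that work with those of the list were read in the same way. Of 60 partners, 53 were tested with 99 probe sets, of which limma called 0 between the sides, 3 had an unadjusted p under 0.05, and the fold rule named 0 on the right and 1 on the left. Over all tested probe sets the shares were 0% called by limma, 3.40% at an unadjusted p under 0.05, and 2.4% on the right and 1.55% on the left by the fold rule. The median log2(R/L) was 0.09 for 10 genes of the Sm ring and the methylosome, 0.02 for 14 autophagy and Vcp partners and 0.06 for 10 partners of Fig4 and ESCRT-III. It was −0.03 for 9 genes that shape the endoplasmic reticulum and −0.10 for 10 other paraplegia genes. The probe set on the left belongs to Lnpk, which stabilises junctions of the endoplasmic reticulum (1456859_at). It read 1564, 1535 and 1153 in left pools against 717, 639 and 1140.3 in right pools, with a mean of −0.80 ± 0.68 (limma adjusted p = 0.974). Its sides did not overlap, embryo 3 was nearly level, and the other Lnpk probe sets averaged −0.10 and 0.13.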

How the data were processed

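The authors put biotin-labelled, amplified RNA of each of the 6 pools on an Affymetrix Mouse 430 2.0 array and computed MAS5 signals in Affymetrix Expression Console (version not given in the sources used here). These deposited intensities are linear, and every array has a mean of 500 once 2% of probe sets at either end are trimmed. Detection calls were not used here. Their log2 was taken with no constant added, and 64 controls were dropped from 45101 probe sets.

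The tests of sides and embryos used R 4.3.3 and limma 3.58.1 (side and embryo as terms, variance trend, Benjamini-Hochberg adjustment over 21853 probe sets), in a script tested on simulated data. The pairing of pools rests on their shared animal and sections, and their deviations from the side means correlated at 0.241, 0.215 and 0.495. Precision is limited by having 6 arrays. The brightest probe set of a gene has its highest mean signal.

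Signals in all pools were given for the 5 probe sets with the smallest p between sides, the 5 between embryos, the brightest of Smn1, Sod1, Tardbp, Sqstm1, Vcp, Spast and Bicd2, and those farthest apart in 3 genes, and for a few others picked after their values were seen. Partners were named if they met the fold rule or had p under 0.01. The members and lists were chosen with earlier results of these data known. Alternatives changed the normalization, an added constant, the signal limit, the summary per gene, the fold rule, the variance trend, the embryos used and the pairing.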

Additional observations from a re-analysis of the deposited data

How the results depend on the processing

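The members called between the sides by limma stayed at 0 under every alternative run, with the smallest adjusted p between 0.917 and 1.00 and from 0 to 5 members at an unadjusted p under 0.05. Without the replicate block, that is without pairing the pools of an embryo, 0 members were called (smallest adjusted p 0.99997), and the pairing changed no call. The count higher on the right by the fold rule was 1 after quantile normalization (Vapb 1458501_at, mean log2(R/L) 0.59) and 3 with no signal limit (Trpv4, and dim probe sets of Sod1 and Ubqln2). It ran from 0 to 3 when 1 embryo was left out, with the 3 (Gemin5 1436311_at, Gemin2 and Vapb 1458501_at) reached without embryo 3. The count higher on the left was 2 with no limit (Matr3 1458508_at and Sqstm1 1444021_at), and 0 in each fit that left out an embryo. When 1 embryo was left out, the share of all tested called between embryos ran from 0.0229% to 3.87%, and 0 to 1 members were called, namely Hnrnpa2b1 1433830_at without embryo 1 (limma adjusted p = 0.0470) and Gemin2 without embryo 2 (limma adjusted p = 0.0173). The median of the members ran from 0.02 to 0.15. Over all tested probe sets, the fold rule named 524 on the right and 338 on the left. These counts were 333 and 197 with 50 added to each signal, 2805 and 1696 with no limit, 131 and 104 with a limit of 500, 234 and 176 with a limit of 200 on the mean, and 84 and 49 when all 3 embryos had to pass. They ran from 200 to 1070 on the right and from 176 to 642 on the left when 1 embryo was left out, with the highest of both without embryo 3, and from 0 to 1 for limma's calls between the sides, with the 1 without embryo 1. Means of single probe sets could change sign when 1 embryo was left out, as for Tia1 1431708_a_at (0.29, and −0.18 without embryo 2) and Sod1 1459976_s_at (0.15, and −0.15 without embryo 1). Dim probe sets, such as those of the SMN complex, have the widest intervals.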
